A study of Homo sapiens with 12 samples.

Results

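NFE2L2 encodes NRF2, the transcription factor that switches on genes against oxidants and reactive chemicals. It was followed together with 8 of its textbook targets: GCLC, GCLM, SLC7A11, TXNRD1, SRXN1, NQO1, HMOX1 and OSGIN1. The 9 genes were chosen by name from the 58735 genes of the count table, and all 9 passed the filter on low counts. Earlier results of these data were known at that choice, so the counts of these genes called are descriptions. RNA was sequenced from Huh7 and HLF, established lines of human hepatocellular carcinoma that the labels give as wild-type, in 3 cultures with 2 biological replicates each, 12 libraries in all.

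Each line was grown in Inject-Embed, Mix-Embed and 2D. In Inject-Embed, 4000 Huh7 or 2000 HLF cells per well were placed with a pipette tip into the middle of a Matrigel layer, a basement membrane extract. In Mix-Embed, 20000 Huh7 or 10000 HLF cells per well were mixed with Matrigel and layered on gel that had already set. Both gel cultures were harvested between day 6 and day 8, and the flat 2D culture on day 2 at about 90% confluency. Against 2D, gel and days in culture changed together, and no number of cells seeded is recorded here for 2D. The shares of gel, days and seeding in any difference from 2D therefore cannot be told apart. Between the gel cultures of a line, way of embedding and cells seeded changed together. Cells seeded also differed between the lines in each gel, so these shares cannot be told apart either. All groups grew in the same serum-containing medium, and no oxidant or drug is named in the labels. The labels do not say whether the replicates came from separate passages or days, so p-values measure the spread between these libraries.

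As background, the adaptor protein KEAP1 holds NRF2 in the cytoplasm and marks it for destruction until oxidants or electrophiles modify KEAP1. NRF2 then accumulates, pairs with a small MAF protein and binds antioxidant response elements near its targets, so much of its control acts on the protein and is not seen in its RNA. In liver the pathway serves the defence against reactive drug metabolites, and mutations that keep it switched on occur in hepatocellular carcinoma.

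The targets have several roles. GCLC and GCLM are the catalytic and the modifier subunit of glutamate-cysteine ligase, which makes the first peptide bond of glutathione, and SLC7A11 is the cystine carrier of system xc-, which feeds that synthesis. TXNRD1 reduces thioredoxin in the cytosol, and SRXN1, sulfiredoxin, repairs over-oxidised peroxiredoxins. NQO1 reduces quinones, HMOX1 breaks down haem, and OSGIN1 is an oxidative stress-induced growth inhibitor. NFE2L2 (ENSG00000116044) lies at chr2:177227595-177392697 on the minus strand in the annotation of the count table, build GRCh38. GCLC (ENSG00000001084) is at chr6:53497341-53616970, GCLM (ENSG00000023909) at chr1:93885205-93909456 and SLC7A11 (ENSG00000151012) at chr4:138164097-138242349, all on the minus strand. TXNRD1 (ENSG00000198431) is at chr12:104215779-104350305 on the plus strand and SRXN1 (ENSG00000271303) at chr20:646615-653370 on the minus strand. NQO1 (ENSG00000181019) is at chr16:69706996-69726951 on the minus strand, HMOX1 (ENSG00000100292) at chr22:35380361-35394214 and OSGIN1 (ENSG00000140961) at chr16:83948282-83966332, both on the plus strand.

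Promoters were read from RefSeq, GRCh38.p14, as the 250 bases before each listed transcription start, for 7 members with 9 starts between them. HMOX1 and SLC7A11 were not matched. The core of the antioxidant response element was searched as TGACNNNGC on both strands (GCNNNGTCA on the other strand). It was found before the start of 2 members, GCLM and TXNRD1, and is present in 10.9% of the 35116 RefSeq promoters of the same length. Bases outside these windows were not searched, so a window without a match does not show that a gene lacks the element. The fully specified form TGACTCAGC, which 160 of those promoters hold (0.456%), was not among the letters of the member windows. The 3 windows with a match are printed because they hold the match, with the match in capitals. They are GCLM, chr1:93909431-93909680, minus strand, with the match beginning 34 bases before the start, and TXNRD1 at chr12:104215529-104215778 and chr12:104286782-104287031, plus strand, with matches beginning 99 and 102 bases before their starts.
GCLM: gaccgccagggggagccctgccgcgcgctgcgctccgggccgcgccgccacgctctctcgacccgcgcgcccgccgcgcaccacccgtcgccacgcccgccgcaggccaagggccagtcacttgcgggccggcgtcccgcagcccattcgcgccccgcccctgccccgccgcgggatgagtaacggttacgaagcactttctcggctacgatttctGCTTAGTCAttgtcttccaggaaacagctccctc
TXNRD1, upstream start: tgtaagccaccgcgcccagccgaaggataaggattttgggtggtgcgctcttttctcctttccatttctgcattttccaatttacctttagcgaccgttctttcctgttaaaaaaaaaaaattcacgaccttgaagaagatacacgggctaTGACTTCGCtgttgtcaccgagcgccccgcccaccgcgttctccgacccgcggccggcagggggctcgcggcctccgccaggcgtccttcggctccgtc
TXNRD1, downstream start: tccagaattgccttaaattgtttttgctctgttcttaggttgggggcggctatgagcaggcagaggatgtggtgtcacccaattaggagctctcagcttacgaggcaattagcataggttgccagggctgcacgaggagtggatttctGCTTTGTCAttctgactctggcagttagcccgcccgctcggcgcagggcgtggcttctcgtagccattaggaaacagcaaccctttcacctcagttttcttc
These matches are a description of the letters in a window and were not tested for binding.

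Library totals ran from 12325877 to 16041906 counts, and replicates of every group differed by more than counting noise. Of 8 hepatocyte markers fixed for the check of the labels, all had counts in Huh7, summing to 18400 to 23000 CPM (counts scaled to the library total), while in HLF they summed to 26.9 to 168 CPM. APOB and TTR had no counts in any HLF group and ALB had at most 3 in a group, so HLF did not carry the defining hepatocyte genes; nearly all of its sum was the fibrinogen gene FGB. HLF instead held 2520 to 3300 CPM of 6 mesenchymal markers, against 67.4 to 143 CPM in Huh7 libraries. By the test described below, 5 of these 6 were lower in Huh7 than in HLF in each culture and 1 was higher. Of 6 leukocyte markers, LYZ made up nearly all of the 235 to 336 CPM in Huh7, and PTPRC and CD3E had no counts in HLF. The 4 endothelial markers summed to 10 to 13.3 CPM in Huh7 and 0.504 to 1.71 CPM in HLF, and the 6 fibroblast or stellate markers to 3.23 to 8.91 CPM in Huh7 and 309 to 335 CPM in HLF. Mitochondrial ribosomal RNA took 0.468% to 0.597% of the counts in gel libraries and 0.293% to 0.315% in 2D libraries of both lines, and its part in the results was not tested. In bulk RNA, fewer cells expressing a gene and less RNA per cell cannot be told apart.

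Levels are given as FPKM, counts scaled to gene length and to the library total, the total itself adjusted by the TMM method, so levels of different genes can be set side by side. TXNRD1, NQO1 and NFE2L2 were the abundant members. TXNRD1 ran from 31.8 to 68.1 FPKM over the 12 libraries, NQO1 from 29.6 to 54.6 FPKM, and NFE2L2 from 8.66 to 39.5 FPKM. SRXN1 (1.57 to 2.76 FPKM) and OSGIN1 (0.867 to 3.85 FPKM) were the least abundant, with 59 to 120 counts and 45 to 189 counts per library, so their changes are known least well. The spread of group means also differed. The highest group mean of SLC7A11 was 6.05 times the lowest, that of NFE2L2 4.25 times, of OSGIN1 3.45 times and of HMOX1 3.2 times, whereas GCLC varied least, by 1.39 times.

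**Figure D1:**
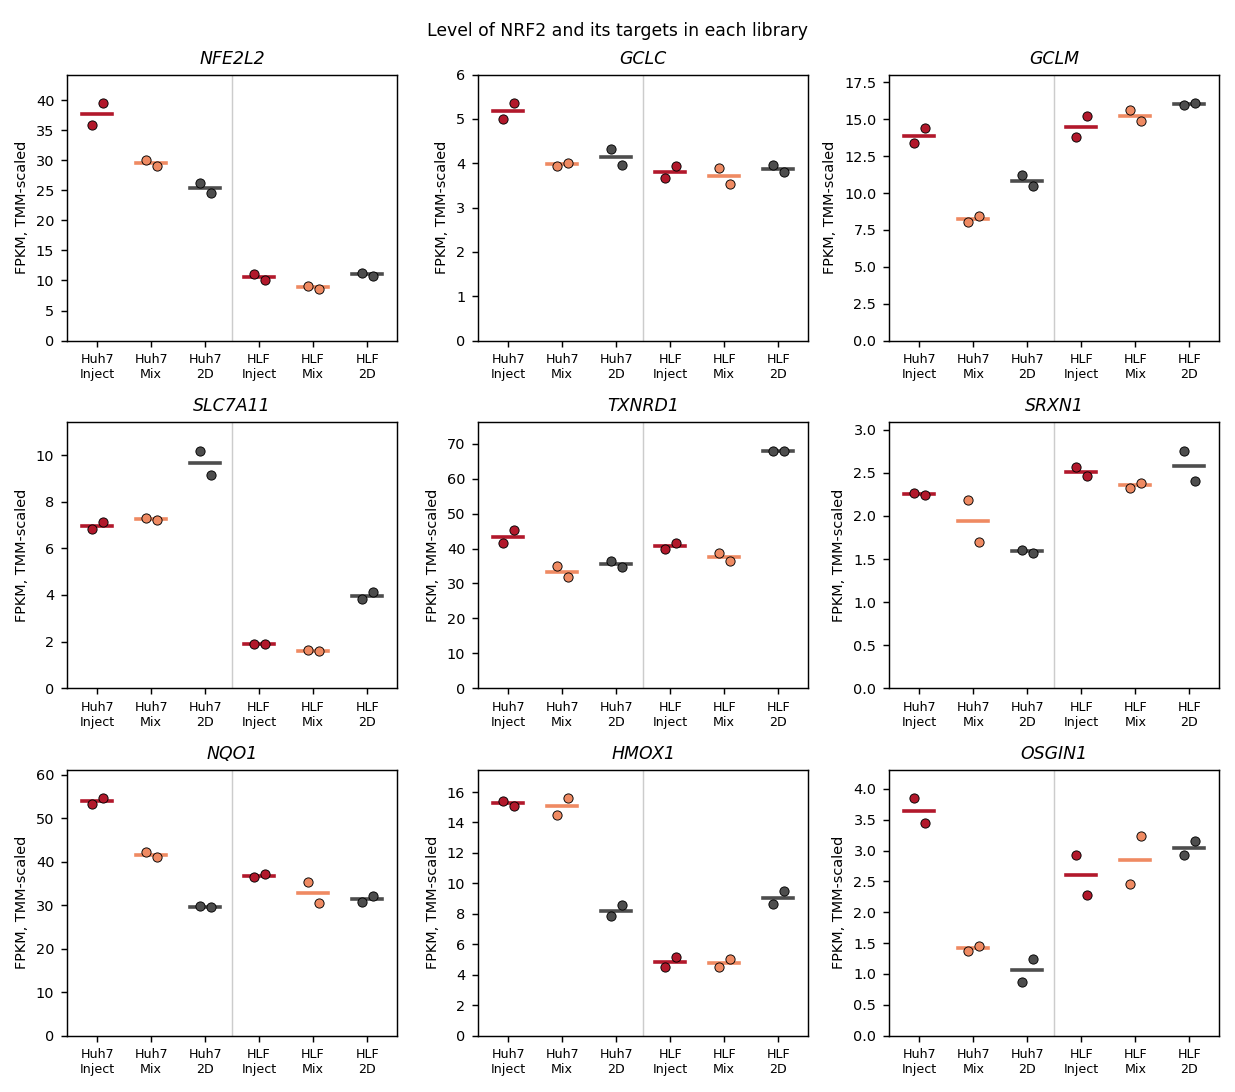
Level of each of the 9 genes (TMM-scaled FPKM, linear axes from 0) in the 12 libraries; points are libraries, bars are means of the 2 replicates, and the grey line parts Huh7 from HLF. NFE2L2 stands at 24.6 to 39.5 FPKM in all 6 Huh7 libraries and 8.66 to 11.3 FPKM in all 6 HLF libraries, and TXNRD1 reaches 68 and 68.1 FPKM in HLF 2D alone.

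The order of the 6 groups was different for nearly every gene. NFE2L2 followed the line first: all Huh7 groups lay above all HLF groups, and only HLF Inject-Embed and HLF 2D overlapped. SLC7A11 also had every Huh7 group above every HLF group, but with 2D highest within each line. GCLM was highest in the HLF groups, where HLF Inject-Embed and HLF Mix-Embed overlapped, then in Huh7 Inject-Embed, which overlapped HLF Inject-Embed, then in Huh7 2D and Huh7 Mix-Embed. HMOX1 was highest in both Huh7 gel cultures, which overlapped, intermediate in both 2D cultures and lowest in both HLF gel cultures, which also overlapped. For GCLC, 5 of the 6 groups lay between 3.54 and 4.32 FPKM and each overlapped its neighbour, with Huh7 Inject-Embed alone above them. For SRXN1 the Huh7 2D mean was the lowest at 1.59 FPKM and the HLF 2D mean the highest at 2.58 FPKM.

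Most of the 9 genes rose in Huh7 Inject-Embed, and in HLF most of those called fell. In Huh7 Inject-Embed against Huh7 2D, 7 of the 9 genes rose, 1 fell and SRXN1 did not pass the test, which was edgeR's quasi-likelihood test with Benjamini-Hochberg adjustment over 19342 genes at 0.05. In that comparison 29.9% of all tested genes were called, 13.2% higher and 16.7% lower. The median log2 fold change of the 9 genes was 0.50, beside -0.01 over all tested genes. In HLF Inject-Embed against HLF 2D, only NQO1 rose, and SLC7A11, TXNRD1 and HMOX1 fell, while 17.9% of all genes were called (9.09% higher and 8.86% lower). There the median was -0.15 for the 9 genes and 0.00 for all genes.

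Mix-Embed gave a more divided picture. In Huh7 Mix-Embed against Huh7 2D, NFE2L2, NQO1 and HMOX1 rose and GCLM and SLC7A11 fell, with 21.7% of all genes called (11.2% higher and 10.6% lower) and medians of 0.22 for the 9 genes and 0.00 for all genes. In HLF Mix-Embed against HLF 2D, NFE2L2, SLC7A11, TXNRD1 and HMOX1 fell and the other 5 did not pass the test, with 29% of all genes called (14.4% higher and 14.6% lower). The 9 genes had a median of -0.13 there, beside 0.00 for all genes. The comparisons of both gel cultures in a line share the same 2D libraries. Between the gel cultures, 6 of the 9 were higher in Huh7 Inject-Embed than in Huh7 Mix-Embed, where 22.9% of all genes were called, 9.55% higher and 13.4% lower. In HLF Inject-Embed against HLF Mix-Embed only NFE2L2 was called, higher, among 8.27% of all genes (3.56% higher and 4.71% lower). With library totals in place of TMM scaling, 63.3% of all called genes were higher in HLF Inject-Embed than in HLF 2D, beside 50.6% with TMM, and 62.4% beside 49.8% for HLF Mix-Embed. For Huh7 Inject-Embed against Huh7 Mix-Embed that share was 52.9% beside 41.7%.

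**Figure D2:**
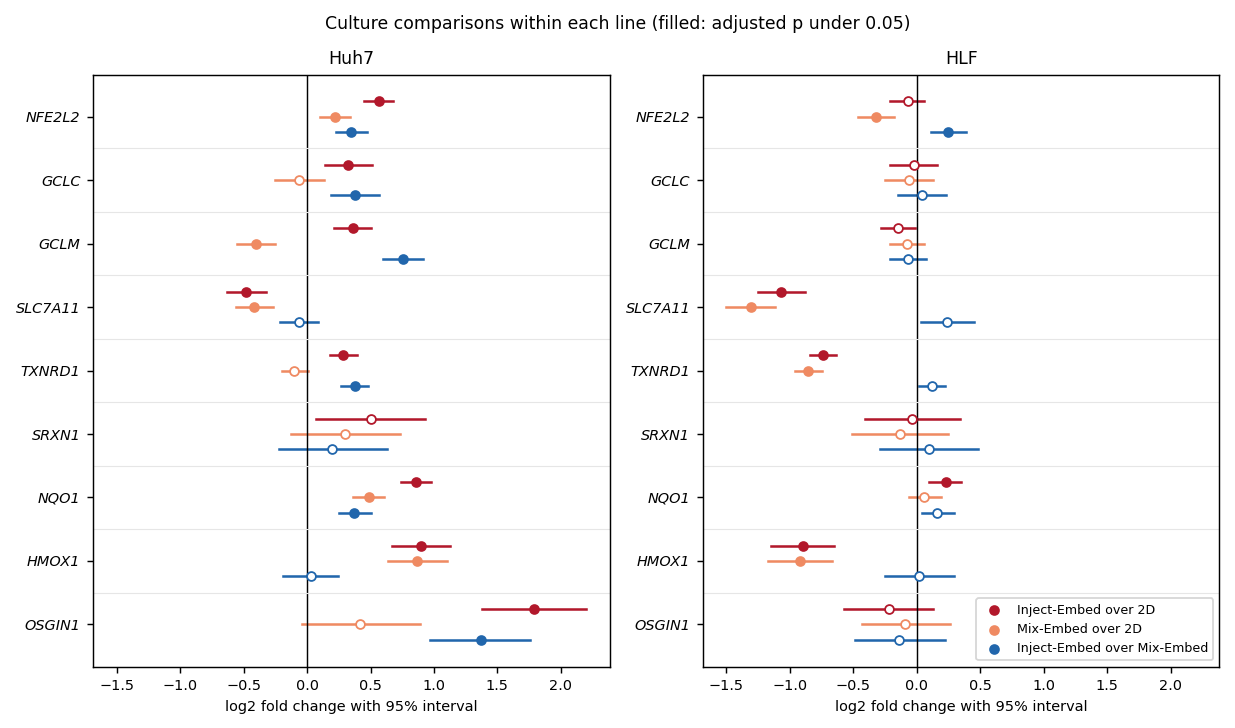
Log2 fold changes between cultures (points) with their 95% intervals (lines) for the 9 genes in Huh7 (left) and HLF (right), on 1 shared axis; filled points passed the test. In Huh7, Inject-Embed over 2D lies right of 0 for 8 genes and left of it for SLC7A11 at -0.48, while in HLF the called decreases of SLC7A11, TXNRD1 and HMOX1 lie between -1.31 and -0.74.

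NFE2L2 RNA itself rose in Huh7 gels. It stood at 35.9 and 39.5 FPKM in Huh7 Inject-Embed, at 30.1 and 29.1 FPKM in Huh7 Mix-Embed and at 26.2 and 24.6 FPKM in Huh7 2D. The 3 cultures did not overlap. Inject-Embed was higher than 2D by 0.57 ± 0.06 on the log2 scale (± SE here and below, adjusted p = 1.39e-10), and Mix-Embed by 0.22 ± 0.06 (adjusted p = 0.00483). The Mix-Embed call was lost with every limma fit (limma adjusted p from 0.0552 to 0.113), within a range of 0.00355 to 0.113 over its alternatives. It was also lost without Huh7 2D replicate 2 (0.17) or Huh7 Mix-Embed replicate 1 (0.20). Inject-Embed was also higher than Mix-Embed, by 0.35 ± 0.06 (adjusted p = 9.41e-06).

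In HLF the same RNA was lower in every culture. Its levels were 11 and 10 FPKM in HLF Inject-Embed, 9.1 and 8.66 FPKM in HLF Mix-Embed and 11.3 and 10.8 FPKM in HLF 2D. Mix-Embed fell below 2D by 0.32 (log2 fold change -0.32 ± 0.07, adjusted p = 0.000288), with no overlap. With limma on log2(FPKM + 1) and no filter that call was lost (-0.23, adjusted p = 0.0505), the highest of a range from 4.67e-05 over its alternatives. Inject-Embed overlapped 2D, with a log2 fold change of -0.07 ± 0.07 and a 95% interval of -0.21 to 0.06. HLF Inject-Embed was higher than HLF Mix-Embed by 0.25 ± 0.07 (adjusted p = 0.0174). That call was lost with every limma fit (limma adjusted p from 0.0972 to 0.178). It was also lost without HLF Inject-Embed replicate 1 (0.17) or HLF Mix-Embed replicate 2 (0.21). The NFE2L2 gene model spans AGPS on the opposite strand, which had 34994 counts over the 12 libraries beside 20731 for NFE2L2. The strand setting of the counting is not given in the sources used here, so reads of the genes where they overlap may not be told apart.

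Both subunits of glutamate-cysteine ligase rose in Huh7 Inject-Embed. GCLM had 13.4 and 14.4 FPKM in Huh7 Inject-Embed, 8.04 and 8.44 FPKM in Huh7 Mix-Embed and 11.2 and 10.5 FPKM in Huh7 2D. GCLC had 5 and 5.36 FPKM in Huh7 Inject-Embed, 3.94 and 4.01 FPKM in Huh7 Mix-Embed and 4.32 and 3.96 FPKM in Huh7 2D. For GCLM the cultures stood apart in the order Inject-Embed, 2D, Mix-Embed, and for GCLC only Inject-Embed stood apart. GCLM was higher in Inject-Embed than in 2D by 0.36 ± 0.07 (adjusted p = 0.000124) and fell in Mix-Embed (log2 fold change -0.40 ± 0.08, adjusted p = 7.25e-05), a difference between the gels of 0.76 ± 0.08 (adjusted p = 8.5e-11). GCLC was higher in Inject-Embed than in 2D by 0.32 ± 0.09 (adjusted p = 0.00572) and higher than in Mix-Embed by 0.38 ± 0.09 (adjusted p = 0.00184). Against 2D its call was lost without Huh7 2D replicate 2 (0.26, adjusted p = 0.0796) or Huh7 Inject-Embed replicate 2 (0.28, 0.0722), and ran from 0.00232 to 0.0796 over its alternatives. For GCLC in Mix-Embed against 2D the log2 fold change was -0.06, with a 95% interval of -0.25 to 0.13.

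In HLF neither subunit passed the test in any culture comparison. With the compared groups fitted alone, GCLM was called lower in HLF Inject-Embed than in HLF 2D (-0.15, adjusted p = 0.048, in a range of 0.048 to 0.689 over its alternatives). GCLM had 13.8 and 15.2 FPKM in HLF Inject-Embed, 15.6 and 14.9 FPKM in HLF Mix-Embed and 16 and 16.1 FPKM in HLF 2D. GCLC had 3.68 and 3.95 FPKM in HLF Inject-Embed, 3.9 and 3.54 FPKM in HLF Mix-Embed and 3.96 and 3.8 FPKM in HLF 2D. The 95% intervals against 2D were -0.28 to -0.01 (Inject-Embed) and -0.21 to 0.06 (Mix-Embed) for GCLM, and -0.21 to 0.16 and -0.25 to 0.13 for GCLC in the same order. The ratio of GCLM to GCLC FPKM, which was not tested, was higher in every HLF library than in any Huh7 library, and HLF Mix-Embed and HLF 2D overlapped. It was 2.69 in both Huh7 Inject-Embed libraries, 2.04 to 2.11 in Huh7 Mix-Embed and 2.6 to 2.66 in Huh7 2D, and 3.76 to 3.85 in HLF Inject-Embed, 4 to 4.2 in HLF Mix-Embed and 4.05 to 4.25 in HLF 2D.

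SLC7A11 was the member that fell in all 4 comparisons of a gel culture with 2D. It had 6.83 and 7.12 FPKM in Huh7 Inject-Embed, 7.3 and 7.23 FPKM in Huh7 Mix-Embed and 10.2 and 9.14 FPKM in Huh7 2D. In HLF it had 1.9 and 1.89 FPKM in Inject-Embed, 1.62 and 1.59 FPKM in Mix-Embed and 3.82 and 4.12 FPKM in 2D. Within each line both gel cultures lay below 2D without overlap. The log2 fold changes were -0.48 ± 0.07 in Huh7 Inject-Embed (adjusted p = 1.84e-06), -0.42 ± 0.07 in Huh7 Mix-Embed (2.74e-05), -1.07 ± 0.09 in HLF Inject-Embed (1.34e-12) and -1.31 ± 0.09 in HLF Mix-Embed (3.15e-15). Between the gel cultures it did not pass the test, with -0.06 in Huh7 (95% interval -0.21 to 0.09) and 0.24 in HLF (0.03 to 0.45), although the libraries did not overlap in either line. Its antisense gene SLC7A11-AS1 had 728 counts in all, beside 8659 for SLC7A11.

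TXNRD1 moved in opposite directions in the lines in Inject-Embed, while in Mix-Embed only the HLF decrease was called. It had 41.5 and 45.2 FPKM in Huh7 Inject-Embed, 34.9 and 31.8 FPKM in Huh7 Mix-Embed and 36.5 and 34.7 FPKM in Huh7 2D. In HLF it had 40 and 41.6 FPKM in Inject-Embed, 38.7 and 36.5 FPKM in Mix-Embed and 68 and 68.1 FPKM in 2D. The HLF 2D libraries thus stood apart from the other 10, which lay between 31.8 and 45.2 FPKM. Huh7 Inject-Embed was higher than Huh7 2D by 0.28 ± 0.05 (adjusted p = 2.89e-05), and Huh7 Mix-Embed overlapped 2D at -0.10 (95% interval -0.20 to 0.01). In HLF the log2 fold changes against 2D were -0.74 ± 0.05 in Inject-Embed (adjusted p = 1.06e-15) and -0.86 ± 0.05 in Mix-Embed (4.28e-18). Huh7 Inject-Embed was higher than Huh7 Mix-Embed by 0.38 ± 0.05 (adjusted p = 2.62e-07). TXNRD1 and GCLM, whose promoter windows are printed above, both rose in Huh7 Inject-Embed. So did NFE2L2, GCLC, NQO1 and OSGIN1, whose windows held no match. In Huh7 Mix-Embed GCLM fell and TXNRD1 was not called, and in the HLF gels TXNRD1 was called lower and GCLM was not called. A link between the matches and these changes was not tested. The pseudogene RPL18AP3, on the same strand within TXNRD1, had 15864 counts of its own beside 51614 for TXNRD1, and how reads were shared between them is not given in the sources used here.

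SRXN1 did not pass the test between any cultures. It had 2.27 and 2.24 FPKM in Huh7 Inject-Embed, 2.19 and 1.7 FPKM in Huh7 Mix-Embed and 1.61 and 1.57 FPKM in Huh7 2D, so that both gel cultures lay above 2D. The log2 fold changes were 0.50 ± 0.21 for Huh7 Inject-Embed (adjusted p = 0.0694) and 0.30 ± 0.21 for Huh7 Mix-Embed (0.369), with 95% intervals of 0.07 to 0.93 and -0.13 to 0.73. The Inject-Embed difference passed with limma on the deposited FPKM (adjusted p = 0.0198 with a pseudocount of 1), within a range of 0.0194 to 0.205 over its alternatives. In HLF the libraries had 2.57 and 2.46 FPKM in Inject-Embed, 2.33 and 2.38 FPKM in Mix-Embed and 2.76 and 2.41 FPKM in 2D. Their 95% intervals against 2D were -0.41 to 0.34 for Inject-Embed and -0.51 to 0.25 for Mix-Embed.

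NQO1 rose in both Huh7 gels, in graded steps. It had 53.2 and 54.6 FPKM in Huh7 Inject-Embed, 42.1 and 41.1 FPKM in Huh7 Mix-Embed and 29.7 and 29.6 FPKM in Huh7 2D. The replicates lay close together and the cultures far apart. Inject-Embed exceeded 2D by 0.86 ± 0.06 (adjusted p = 2.22e-15), Mix-Embed exceeded 2D by 0.49 ± 0.06 (4.62e-08) and Inject-Embed exceeded Mix-Embed by 0.37 ± 0.06 (4.25e-06). In HLF, NQO1 had 36.5 and 37.1 FPKM in Inject-Embed, 35.4 and 30.4 FPKM in Mix-Embed and 30.8 and 32.1 FPKM in 2D. HLF Inject-Embed was higher than HLF 2D by 0.23 ± 0.06 (adjusted p = 0.00606), a call lost without HLF 2D replicate 1 (0.20, adjusted p = 0.101) or HLF Inject-Embed replicate 2 (0.22, 0.0567), with a range of 0.000192 to 0.101. HLF Mix-Embed overlapped 2D, with a 95% interval of -0.06 to 0.19. Between the HLF gels NQO1 did not pass the test (0.16 ± 0.06, adjusted p = 0.0966), but did without HLF Mix-Embed replicate 1 (0.26, 0.014), with a range of 0.014 to 0.821.

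HMOX1 rose in Huh7 gels and fell in HLF gels by nearly the same amount on the log2 scale. It had 15.4 and 15.1 FPKM in Huh7 Inject-Embed, 14.5 and 15.6 FPKM in Huh7 Mix-Embed and 7.84 and 8.57 FPKM in Huh7 2D. In HLF it had 4.53 and 5.19 FPKM in Inject-Embed, 4.52 and 5.04 FPKM in Mix-Embed and 8.63 and 9.48 FPKM in 2D. In Huh7 both gel cultures lay above 2D without overlap, and in HLF both lay below it. The log2 fold changes against 2D were 0.90 ± 0.11 in Huh7 Inject-Embed (adjusted p = 2.02e-08), 0.87 ± 0.11 in Huh7 Mix-Embed (6.36e-08), -0.90 ± 0.12 in HLF Inject-Embed (2.89e-07) and -0.92 ± 0.12 in HLF Mix-Embed (8.61e-08). The gel cultures of a line overlapped, with 95% intervals of their difference of -0.19 to 0.24 in Huh7 and -0.25 to 0.29 in HLF.

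OSGIN1 rose in Huh7 Inject-Embed. It had 3.85 and 3.44 FPKM there, 1.37 and 1.46 FPKM in Huh7 Mix-Embed and 0.867 and 1.25 FPKM in Huh7 2D. Inject-Embed was higher than 2D by 1.79 ± 0.20 (adjusted p = 1.41e-09), the largest log2 fold change among the 9 genes in that comparison, and higher than Mix-Embed by 1.37 ± 0.20 (5.1e-07). Mix-Embed lay above 2D without overlap but did not pass the test, with 0.42 ± 0.23 and a 95% interval of -0.04 to 0.89. In HLF the libraries had 2.92 and 2.28 FPKM in Inject-Embed, 2.45 and 3.24 FPKM in Mix-Embed and 2.92 and 3.15 FPKM in 2D. These overlapped, and none of the HLF culture comparisons passed the test for OSGIN1.

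The lines were also set against each other within each culture. In 2D, NFE2L2 and SLC7A11 were higher in Huh7 than in HLF, and GCLM, TXNRD1, SRXN1 and OSGIN1 were lower in Huh7, 6 of 9 called where 77.2% of all genes were called (38.1% higher and 39.2% lower in Huh7). A share of 6 in 9 lies below that background. In Inject-Embed, 6 of the 9 were higher in Huh7 and the other 3 did not pass, with 77.1% of all genes called, 37.6% higher and 39.5% lower. In Mix-Embed 4 were higher and 3 lower in Huh7, with 76.9% called, 37.9% higher and 39.1% lower. In either direction, the 6 of 9 called in Inject-Embed also lay below its background, and the 7 of 9 in Mix-Embed lay near it. With library totals in place of TMM scaling the median over all genes of Huh7 against HLF was -0.20 in Inject-Embed (-0.03 with TMM), -0.25 in Mix-Embed (-0.03 with TMM) and -0.18 in 2D (-0.02 with TMM), and small differences between the lines moved with it.

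NFE2L2 was higher in Huh7 by 1.84 ± 0.06 in Inject-Embed (adjusted p = 2.57e-28), 1.74 ± 0.06 in Mix-Embed (5.3e-27) and 1.20 ± 0.06 in 2D (1.96e-21). SLC7A11 was higher in Huh7 by 1.88 ± 0.09 in Inject-Embed, 2.18 ± 0.09 in Mix-Embed and 1.29 ± 0.08 in 2D (adjusted p between 2.73e-25 and 2.23e-19). These were the 2 genes with the same called direction in every culture. HMOX1 had a log2 difference of -0.14 in 2D (95% interval -0.38 to 0.09) and was higher in Huh7 by 1.65 ± 0.12 in both Inject-Embed (adjusted p = 1.96e-16) and Mix-Embed (1.79e-16). NQO1 had a log2 difference of -0.08 in 2D (95% interval -0.21 to 0.04) and was higher in Huh7 by 0.55 ± 0.06 in Inject-Embed (3.97e-11) and 0.34 ± 0.06 in Mix-Embed (3.57e-06). With library totals NQO1 in Mix-Embed was 0.11 (adjusted p = 0.0936, range over its alternatives 3.77e-07 to 0.206), and in 2D NQO1 and HMOX1 were called lower in Huh7, at -0.24 and -0.30.

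TXNRD1, in contrast, had a log2 difference of -0.93 ± 0.05 in 2D (adjusted p = 7.63e-21) and had a 95% interval of -0.02 to 0.19 in Inject-Embed, where it was called higher in Huh7 only when Huh7 Inject-Embed replicate 1 was left out (0.14, edgeR adjusted p = 0.0335, in a range of 0.0335 to 0.747). In Mix-Embed its log2 difference was -0.17 ± 0.05 (adjusted p = 0.00279), and -0.12 without Huh7 Mix-Embed replicate 2 (adjusted p = 0.0962, the highest over its alternatives, from 3e-09). GCLM was lower in Huh7, at -0.57 ± 0.07 in 2D (1.04e-09) and -0.89 ± 0.07 in Mix-Embed (9.98e-15), with an interval of -0.20 to 0.08 in Inject-Embed. With library totals GCLM was called lower in Huh7 there too (-0.23, adjusted p = 0.00339, in a range of 0.00339 to 0.984), as it was with limma. OSGIN1 was lower in Huh7, at -1.52 ± 0.20 in 2D (6.01e-09) and -1.02 ± 0.20 in Mix-Embed (1.2e-05), and higher in Huh7 by 0.49 ± 0.18 in Inject-Embed (0.0112). That last OSGIN1 call was lost with library totals (0.32, edgeR adjusted p = 0.0892) and with every limma fit (limma adjusted p from 0.123 to 0.211). It was also lost without Huh7 Inject-Embed replicate 1 (0.40) or HLF Inject-Embed replicate 2 (0.31), and its range was 0.00568 to 0.211. GCLC was higher in Huh7 in Inject-Embed, by 0.44 ± 0.09 (4.49e-05), and SRXN1 lower in Huh7 in 2D, at -0.70 ± 0.20 (0.00193). SRXN1 was also called lower in Huh7 with library totals in Mix-Embed (-0.49, adjusted p = 0.0243, in a range of 0.00624 to 0.7) and with limma on log2(FPKM + 1) in Inject-Embed (-0.23, 0.0426, in a range of 0.0426 to 0.631).

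Whether the culture change itself differed between the lines was tested in the same model. For Inject-Embed against 2D the change was higher in Huh7 than in HLF for 8 of the 9 genes, against 24.8% of all tested genes called (11.7% higher and 13.1% lower). Among these 8, GCLC passed narrowly (0.35 ± 0.13, adjusted p = 0.0463), and its call was lost with library totals, DESeq2 and every limma fit. For Mix-Embed against 2D it was higher in Huh7 for NFE2L2, SLC7A11, TXNRD1, NQO1 and HMOX1 and lower for GCLM, with 20.4% of all genes called (10.2% higher and 10.2% lower). For Inject-Embed against Mix-Embed it was higher in Huh7 for GCLM, TXNRD1 and OSGIN1, with 10.6% called (4.62% higher and 5.95% lower). HMOX1 had a difference of 1.79 ± 0.17 in Inject-Embed (adjusted p = 1.38e-11) and 1.79 ± 0.17 in Mix-Embed (1.8e-11), and TXNRD1 1.02 ± 0.07 (3.48e-15) and 0.76 ± 0.07 (3.11e-11). SLC7A11, which fell in both lines, fell less in Huh7, with differences of 0.59 ± 0.12 in Inject-Embed and 0.89 ± 0.12 in Mix-Embed.

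**Figure D3:**
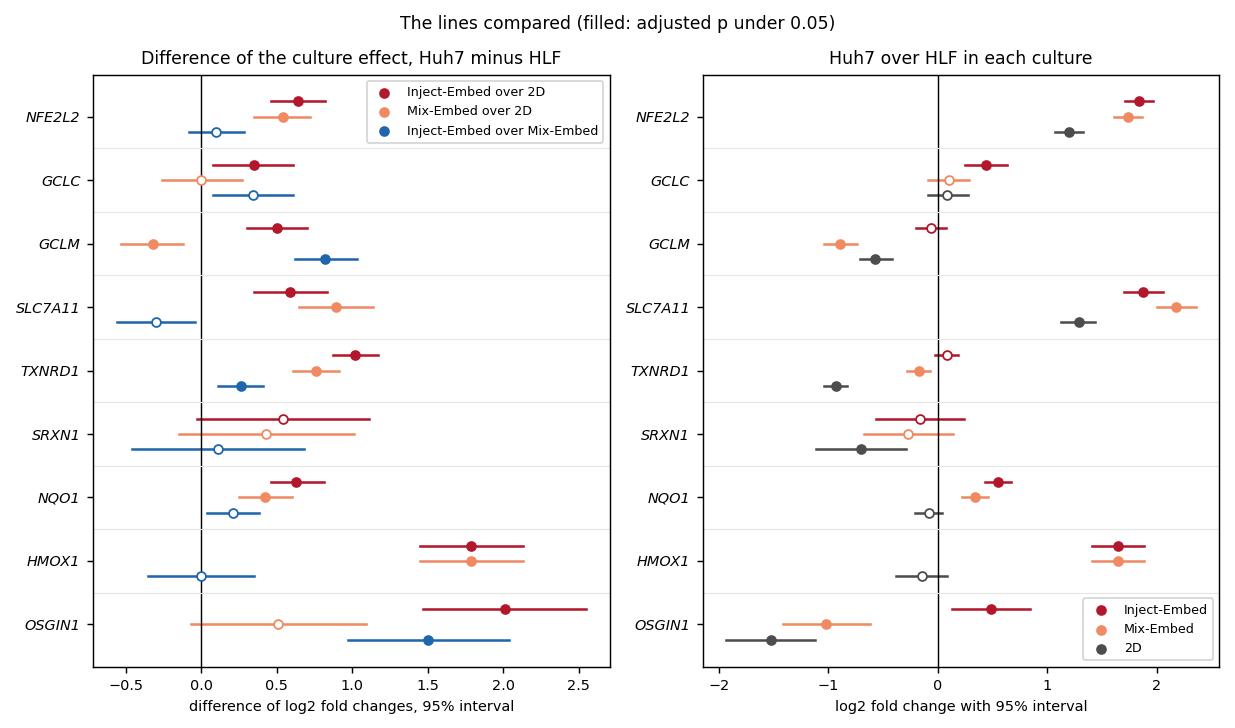
Left, the culture effect in Huh7 minus that in HLF for the 9 genes, and right, Huh7 over HLF within each culture, both as log2 values (points) with 95% intervals (lines); filled points passed the test, and the horizontal scales of the panels differ. On the left the Inject-Embed over 2D differences lie between 0.35 and 2.01, with SRXN1 open; on the right NFE2L2 and SLC7A11 lie right of 0 in all cultures while OSGIN1 lies at 0.49 in Inject-Embed, -1.02 in Mix-Embed and -1.52 in 2D.

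The genes around NRF2 were followed through 12 partners and regulators. KEAP1, the inhibitor, rose in all 4 comparisons with 2D. Its mean was 34.2 FPKM in Huh7 Inject-Embed, 32.4 FPKM in Huh7 Mix-Embed and 26.2 FPKM in Huh7 2D, and 19.4 FPKM in HLF Inject-Embed, 19.7 FPKM in HLF Mix-Embed and 16.7 FPKM in HLF 2D. The KEAP1 log2 fold changes were 0.38 ± 0.07 (adjusted p = 1.16e-05), 0.30 ± 0.07 (0.000538), 0.22 ± 0.07 (0.027) and 0.24 ± 0.07 (0.00838) in that order of gels, and neither gel's change differed between the lines by the test. KEAP1 RNA thus rose where NFE2L2 rose and also where NFE2L2 fell, in HLF Mix-Embed.

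BACH1, a repressor that competes with NRF2 for response elements such as those of HMOX1, did not pass the test in Huh7 (log2 fold change -0.11 in Inject-Embed and 0.10 in Mix-Embed). In HLF, BACH1 had a mean of 10.2 FPKM in Mix-Embed and 8.21 FPKM in 2D, higher by 0.32 ± 0.07 (adjusted p = 0.000513), and 0.14 ± 0.07 in Inject-Embed (0.204). SQSTM1, the autophagy adaptor that binds KEAP1, had 24.2 and 21.7 FPKM in Huh7 Inject-Embed and 18.2 and 20.5 FPKM in Huh7 2D, a rise of 0.25 ± 0.06 (adjusted p = 0.000915). In HLF, SQSTM1 fell in Inject-Embed to 21.5 and 21.7 FPKM, against 27.4 and 27.9 FPKM in 2D (log2 fold change -0.36 ± 0.06, adjusted p = 4.19e-06). The difference between the lines was 0.61 ± 0.08 for SQSTM1 (adjusted p = 1.15e-07).

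The related factors NFE2L1 and NFE2L3 did not follow NFE2L2. NFE2L3 fell in both Huh7 gels, by log2 fold changes of -0.27 ± 0.09 in Inject-Embed (adjusted p = 0.0159) and -0.70 ± 0.09 in Mix-Embed (5.04e-08), and rose in both HLF gels, by 0.30 ± 0.08 (0.00428) and 0.44 ± 0.08 (9.26e-06). NFE2L1, a factor for proteasome genes, had means of 31.7 FPKM in Huh7 Inject-Embed, 40.7 FPKM in Huh7 Mix-Embed and 35.2 FPKM in Huh7 2D, lower in Inject-Embed (-0.15, adjusted p = 0.0183) and higher in Mix-Embed (0.21, 0.00119). The small MAF gene MAFK had a mean of 3.48 FPKM in Huh7 2D and 17 FPKM in HLF 2D, a log2 difference of -2.29 ± 0.11 (adjusted p = 2.95e-23). Over the 12 genes, 2 rose and 7 fell in Huh7 Inject-Embed (median -0.21), while Huh7 Mix-Embed had 2 higher and 6 lower (median -0.23). Against HLF 2D, 2 rose and 3 fell in Inject-Embed (median -0.08), and 5 rose and 2 fell in Mix-Embed (median 0.08). Of all tested genes, 13.2% were called higher and 16.7% lower in Huh7 Inject-Embed, and 11.2% and 10.6% in Huh7 Mix-Embed. The same shares were 9.09% and 8.86% in HLF Inject-Embed, and 14.4% and 14.6% in HLF Mix-Embed.

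A further list of 24 other NRF2 targets was counted, of which 22 were tested. In Huh7 Inject-Embed against 2D 11 rose and 1 fell (median 0.19), and in Huh7 Mix-Embed 8 rose and 1 fell (median 0.08). In HLF, 4 rose and 4 fell in Inject-Embed (median 0.05) and 4 rose and 5 fell in Mix-Embed (median -0.06). Of all tested genes, 13.2% were called higher and 16.7% lower in Huh7 Inject-Embed, and 11.2% and 10.6% in Huh7 Mix-Embed. The same shares were 9.09% and 8.86% in HLF Inject-Embed, and 14.4% and 14.6% in HLF Mix-Embed. FTL, the ferritin light chain, had 3510 and 3610 FPKM in Huh7 Inject-Embed, 2670 and 2770 FPKM in Huh7 Mix-Embed and 2310 and 2360 FPKM in Huh7 2D. In HLF, FTL had 973 and 996 FPKM in Inject-Embed, 953 and 950 FPKM in Mix-Embed and 1270 and 1200 FPKM in 2D. Like HMOX1, which supplies iron to ferritin by opening haem, FTL rose in both Huh7 gels (0.61 ± 0.04, adjusted p = 6.5e-18, and 0.22 ± 0.04, 6.95e-06) and fell in both HLF gels (-0.33 ± 0.04, 2.06e-09, and -0.38 ± 0.04, 2.4e-11).

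GPX2, a selenium-dependent glutathione peroxidase, rose in Huh7 Inject-Embed to 42.2 and 38.4 FPKM and in Mix-Embed to 28.9 and 25.9 FPKM, against 11.2 and 11.6 FPKM in 2D (1.82 ± 0.12, adjusted p = 1.33e-16, and 1.27 ± 0.12, 3.52e-11). In all HLF libraries GPX2 was below 0.4 FPKM. ABCC2, a pump for glutathione conjugates, rose in Huh7 Inject-Embed to 13.9 and 14.3 FPKM, against 6.25 and 5.62 FPKM in 2D (1.24 ± 0.06, adjusted p = 2.98e-20), and ABCC2 was higher by 1.11 ± 0.06 in Huh7 Mix-Embed. EPHX1, the microsomal epoxide hydrolase, UGDH, which makes UDP-glucuronate, and PRDX1, a peroxiredoxin reduced by thioredoxin, rose in Huh7 Inject-Embed by 0.89 ± 0.07, 0.58 ± 0.06 and 0.46 ± 0.05. In HLF Mix-Embed, PRDX1 fell by 0.59 (mean 172 FPKM, against 260 FPKM in 2D, adjusted p = 5.79e-14) and the thioredoxin gene TXN by 0.43 (69.2 against 93.3 FPKM, 1.62e-06). The list as a whole was not tested, and its AKR1C members are near-identical copies whose counts are uncertain.

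Between the lines in 2D, 11 of these 22 were higher and 9 lower in Huh7, where 77.2% of all genes were called. The ferritin heavy chain FTH1 had a mean of 335 FPKM in Huh7 2D and 119 FPKM in HLF 2D (1.49 ± 0.05). Of 17 antioxidant enzymes outside the NRF2 lists, 6 rose and 4 fell in Huh7 Inject-Embed against 2D. Huh7 Mix-Embed had 4 higher and 2 lower, and each HLF gel 5 higher and 2 lower. Of all tested genes, 13.2% were called higher and 16.7% lower in Huh7 Inject-Embed, and 11.2% and 10.6% in Huh7 Mix-Embed. The same shares were 9.09% and 8.86% in HLF Inject-Embed, and 14.4% and 14.6% in HLF Mix-Embed. SOD2, the mitochondrial superoxide dismutase, fell in Huh7 Inject-Embed (mean 13.4 FPKM, against 29.6 FPKM in 2D, -1.15 ± 0.05, adjusted p = 9.57e-23). GPX1, the main cytosolic glutathione peroxidase, rose there (142 FPKM, against 75.5 FPKM in 2D, 0.92 ± 0.06, adjusted p = 7.72e-16), as did CAT, catalase (54.3 against 33.3 FPKM, 0.70 ± 0.06).

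SLC7A11 is also a target of ATF4, the factor of the amino acid response, and works as a pair with the heavy chain SLC3A2. ATF4 did not pass the test in Huh7 gels against 2D (-0.03 and 0.03) and fell in HLF Inject-Embed (-0.20 ± 0.05, adjusted p = 0.00143) and HLF Mix-Embed (-0.30 ± 0.05, 1.43e-06). Of 15 genes of ATF4 and the amino acid response, 13 fell in HLF Inject-Embed and 11 in HLF Mix-Embed against 2D, with medians of -0.61 and -0.64. In Huh7 3 rose and 8 fell in Inject-Embed (median -0.14), and 3 rose and 2 fell in Mix-Embed (median 0.03). Of all tested genes, 8.86% were called lower in HLF Inject-Embed and 14.6% in HLF Mix-Embed. For Huh7, 13.2% of all genes were higher and 16.7% lower in Inject-Embed, and 11.2% and 10.6% in Mix-Embed. SLC7A5, the large neutral amino acid carrier, fell in HLF Inject-Embed to 16.2 and 15.1 FPKM and in HLF Mix-Embed to 11 and 11.9 FPKM, against 42.1 and 44.3 FPKM in 2D (-1.46 ± 0.06, adjusted p = 3.78e-24, and -1.91 ± 0.06, 3.69e-28). PSAT1, an enzyme of serine synthesis, fell in the same cultures to means of 39.7 and 31.3 FPKM, against 60.6 FPKM in 2D.

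In Huh7 Inject-Embed the partner SLC3A2 went against SLC7A11. SLC3A2 had 56.8 and 54.5 FPKM in Huh7 Inject-Embed, 45.6 and 45.2 FPKM in Huh7 Mix-Embed and 38.7 and 39.1 FPKM in Huh7 2D, a rise of 0.52 ± 0.05 in Inject-Embed (adjusted p = 9.79e-11) and 0.22 ± 0.05 in Mix-Embed (0.00138). In HLF, SLC3A2 fell with SLC7A11, to 17.1 and 18.9 FPKM in Inject-Embed and 19.7 FPKM in both Mix-Embed libraries, against 25.3 and 23.8 FPKM in 2D. SLC3A2 also pairs with SLC7A5, which rose in Huh7 Inject-Embed by 0.39 ± 0.05. TRIB3, a pseudokinase induced by ATF4 and CHOP, fell in Huh7 Inject-Embed to a mean of 6 FPKM, against 14.8 FPKM in 2D (-1.31 ± 0.10, adjusted p = 6.07e-14).

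Around HMOX1, 12 genes of haem and iron handling, FTL and FTH1 among them, were counted: 3 rose and 5 fell in Huh7 Inject-Embed, while Huh7 Mix-Embed had 2 higher and 4 lower. Against HLF 2D, 1 rose and 3 fell in Inject-Embed, and 3 rose and 5 fell in Mix-Embed. Of all tested genes, 29.9% were called in Huh7 Inject-Embed, 21.7% in Huh7 Mix-Embed, 17.9% in HLF Inject-Embed and 29% in HLF Mix-Embed. TFRC, the transferrin receptor, fell in all 4 comparisons, with means of 64.9 FPKM in Huh7 Inject-Embed, 80.3 FPKM in Huh7 Mix-Embed and 120 FPKM in Huh7 2D, and 36.7 FPKM in HLF Inject-Embed, 30.1 FPKM in HLF Mix-Embed and 50.9 FPKM in HLF 2D. HMOX2, the constitutive haem oxygenase, rose in Huh7 Inject-Embed (0.47 ± 0.11, adjusted p = 0.00119) and fell in HLF Inject-Embed (-0.29 ± 0.08, adjusted p = 0.00897) and HLF Mix-Embed (-0.54 ± 0.08, 2.03e-06). SLC48A1, a haem transporter, was higher in HLF Mix-Embed, at 26.3 and 28.2 FPKM, than in HLF 2D, at 13.6 and 12.7 FPKM (1.05 ± 0.07, adjusted p = 7.7e-16).

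**Figure D4:**
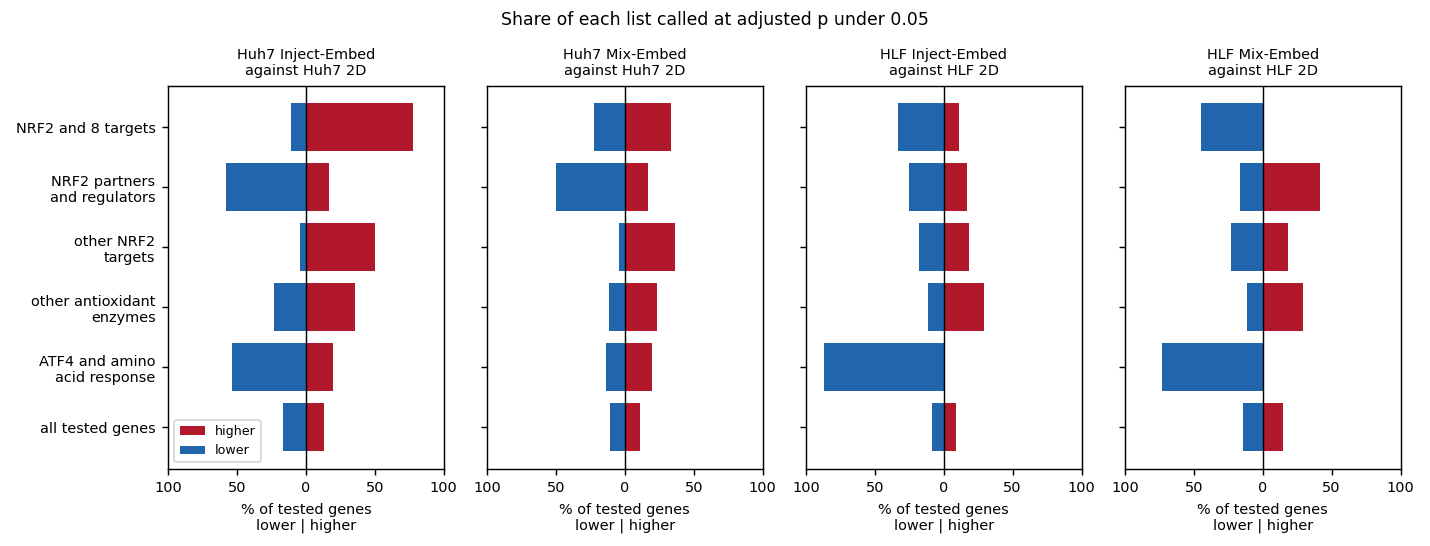
Share of the tested genes of each list that was called higher (red, right) or lower (blue, left) in each gel culture against 2D of the same line, with all tested genes in the lowest bar. NRF2 and its 8 targets have 7 higher and 1 lower in Huh7 Inject-Embed, and 4 lower in HLF Mix-Embed, where 11 of the 15 ATF4 genes are also lower.

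The genes whose pattern was most like the targets were sought among 9971 protein-coding genes with at least 10 CPM. The measure was Pearson's r with the mean log2 CPM of the 8 targets, centred within each line. In Huh7 that mean stood at 0.31 and 0.33 in Inject-Embed libraries, at -0.08 and -0.11 in Mix-Embed libraries and at -0.23 and -0.22 in 2D libraries. In HLF it stood at -0.11 and -0.09 in Inject-Embed, -0.16 in both Mix-Embed libraries, and 0.25 and 0.27 in 2D. Its replicates thus lay close together, with Inject-Embed highest in Huh7 and 2D highest in HLF. Over the 12 libraries the closest genes were FTL (r = 0.982), ZNF587B (0.979), BYSL (0.977), C1QBP (0.976) and EIF3B (0.975). Within Huh7 they were ZNF587B, PUF60, AATF, MT-ND1 and PHLDA1 (r from 0.995 to 0.999, 6 libraries), and within HLF PRPS1, PALLD, CAVIN1, MARCHF4 and NPLOC4 (0.998 to 1.000, 6 libraries). These values describe 6 groups of 2 replicate libraries, and within a line only 3 such groups. They share library depth and scaling, and are the extremes of many candidates.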

How the data were processed

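Gene-level raw counts and FPKM of 12 libraries were deposited by the authors; poly-A RNA was read in pairs on an Illumina NovaSeq, per the labels. FastQC, Trimmomatic, STAR 2.7.9a and featureCounts with GRCh38 were used, per the submitters' processing notes, while neither annotation release nor strand setting is given in the sources used here. The deposited FPKM equal the count over gene length and library total within a relative 1e-06 in all 167453 values with at least 20 counts. Column names carry line, culture and replicate, where Emb was taken to mean Mix-Embed.

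Counts were tested with edgeR 4.0.16 in R 4.3.3: 12 libraries, a mean for each of 6 groups, TMM scaling, filterByExpr with a minimum count of 10 (19342 genes left), quasi-likelihood tests and Benjamini-Hochberg adjustment at 0.05. The biological coefficient of variation, the square root of edgeR's common dispersion over the tested genes, was 4.59%, with 6 residual degrees of freedom. It leaves out counting noise, so replicates of genes with few counts differ by more. The SE is the absolute log2 fold change over the square root of the F statistic. The steps were tested on simulated counts. Alternatives were RLE scaling, library totals alone, other filters, DESeq2 1.42.0, limma 3.58.1 on log2 of deposited FPKM plus a pseudocount of 1 or 0.1, a replicate block, fewer groups, each library left out, and a minimum log2 fold change of 0.58. From each list the genes named are at most 6 with the smallest adjusted p in a comparison, plus KEAP1, BACH1, NFE2L1, NFE2L3 and ATF4; levels of other genes are given where a result turns on them. The 5 genes most like the targets follow the rule stated with them. The 9 genes and the lists were chosen with earlier results of these data known, so their counts are descriptions. Figures and tables used matplotlib 3.10.9, numpy 2.4.6 and pandas 2.3.3 under python 3.11.15.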

Additional observations from a re-analysis of the deposited data

Results flagged for a closer look

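The change with culture differed between the lines by the test of the difference itself (edgeR, Benjamini-Hochberg adjustment, log2 fold change in Huh7 minus that in HLF) for the following genes. For Inject-Embed against 2D the difference was 0.64 ± 0.09 for NFE2L2 (adjusted p = 2.35e-07), 0.50 ± 0.10 for GCLM (9.73e-05) and 0.59 ± 0.12 for SLC7A11 (0.000128). It was 1.02 ± 0.07 for TXNRD1 (3.48e-15), 0.63 ± 0.09 for NQO1 (1.4e-07), 1.79 ± 0.17 for HMOX1 (1.38e-11) and 2.01 ± 0.27 for OSGIN1 (8.92e-08). For GCLC it was 0.35 ± 0.13 (0.0463), with a range of 0.03 to 0.167 over its alternatives. The GCLC call was lost with library totals alone (edgeR adjusted p = 0.0539), with DESeq2 (0.0832) and with no filter (0.12). Every limma fit lost it too (limma adjusted p from 0.0711 to 0.0967). Leaving out Huh7 Inject-Embed replicate 2 (0.30), HLF Inject-Embed replicate 1 (0.32), Huh7 2D replicate 2 (0.29) or HLF 2D replicate 1 (0.32) also lost it. So did leaving out replicate 1 (0.35) or 2 (0.35) of Huh7 Mix-Embed. TXNRD1 and HMOX1 were called higher in Huh7 Inject-Embed and lower in HLF Inject-Embed, whereas SLC7A11 was called lower in both.

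For Mix-Embed against 2D the difference was 0.54 ± 0.09 for NFE2L2 (adjusted p = 1.16e-05), 0.89 ± 0.12 for SLC7A11 (1.55e-07) and 0.76 ± 0.07 for TXNRD1 (3.11e-11). It was 0.42 ± 0.09 for NQO1 (0.000252) and 1.79 ± 0.17 for HMOX1 (1.8e-11). For GCLM it ran the other way, at -0.32 ± 0.10 (0.0177). The GCLM call was lost without replicate 1 of Huh7 Mix-Embed (-0.28, adjusted p = 0.103), Huh7 2D (-0.27, 0.0836), HLF Mix-Embed (-0.31, 0.0539) or HLF 2D (-0.32, 0.0571), with a range of 0.00328 to 0.103 over its alternatives.

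For Inject-Embed against Mix-Embed the difference was 0.82 ± 0.10 for GCLM (adjusted p = 4.98e-08), 1.5 ± 0.26 for OSGIN1 (5.32e-05) and 0.26 ± 0.07 for TXNRD1 (0.0145). The TXNRD1 call was lost without Huh7 Inject-Embed replicate 2 (0.20, adjusted p = 0.118) or Huh7 Mix-Embed replicate 2 (0.20, 0.14), with a range of 0.00159 to 0.14.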

How the results depend on the processing

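Over 108 log2 fold changes of the 9 genes and up to 23 alternatives without a fold minimum, 2430 values were computed. Of these, 2354 stayed on their side of the threshold, 47 calls were lost, 29 were gained and 0 calls changed direction. Some values that were not called did change sign, such as TXNRD1 between the lines in Inject-Embed (-0.08 to 0.14). With a log2 fold change of at least 0.58, the calls were 3 in Huh7 Inject-Embed against 2D (11.3% of all genes called), 1 in Huh7 Mix-Embed against 2D (6.66%), 2 in Huh7 Inject-Embed against Mix-Embed (7.62%), 0 in HLF Inject-Embed against Mix-Embed (1.9%), 3 between the lines in Inject-Embed (62%) and 3 in the line difference of Mix-Embed against 2D (9.78%). HLF Inject-Embed against Mix-Embed had 0 calls with limma at a pseudocount of 1, at 0.1 and with no filter, and 0 to 2 with a library left out. The line difference of Inject-Embed against Mix-Embed had 5 calls with library totals alone, 5 with the compared groups alone, and 2 to 5 with a library left out (5 without HLF Mix-Embed replicate 2). The cause of these shifts was not tested.

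Replicate numbers did not pair the libraries (correlations of deviations from -0.04 to 0.04). With them as a replicate block 107 of 108 values kept their side, and GCLC in the line difference of Inject-Embed against 2D had an adjusted p of 0.0508, so that 7 genes were called there in place of 8.

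Over all genes, HLF Inject-Embed against Mix-Embed had 1600 calls and 670 to 1046 with limma or a library of those groups left out, HLF Inject-Embed against 2D 3471 and 2247 to 2294 with a library of those groups left out, and Huh7 Mix-Embed against 2D 4203 and 2696 without Huh7 Mix-Embed replicate 2. With library totals, calls higher in Huh7 were 37.1% (49.9% with TMM) in the line difference of Mix-Embed against 2D and 61.2% (43.7%) in that of Inject-Embed against Mix-Embed. Depth limits SRXN1 and OSGIN1 most, with 45 to 189 counts a library.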

Other observations

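Of 10 heat shock genes, 5 rose and 1 fell in Huh7 Inject-Embed against 2D, where 29.9% of all genes were called, while 7 fell in Huh7 Mix-Embed, where 21.7% were called. HSP90AA1, a stress-inducible chaperone, had 453 and 470 FPKM in Huh7 Inject-Embed, 289 and 270 FPKM in Huh7 Mix-Embed and 332 and 320 FPKM in Huh7 2D. HSP90AA1 was higher in Inject-Embed than in Mix-Embed by 0.72 ± 0.04 (edgeR, adjusted p = 1.06e-19). In HLF 5 of the 10 fell in Inject-Embed (17.9% of all genes called) and 6 in Mix-Embed (29% called), with HSPD1, a mitochondrial chaperone, at means of 207 FPKM in Inject-Embed, 180 FPKM in Mix-Embed and 255 FPKM in 2D. The list holds HSPA1A and HSPA1B, near-identical copies whose counts are uncertain.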
